A study of Mus musculus with 300 samples.

Results

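Thymic progenitors with abundant Tcf7 transcripts were compared with progenitors of the same mice that had little or none. The cells were chosen from their own expression values: of 261 single cells in the deposited matrix (of 300 in the series), the 193 with a log2 value of Kit above its 25th percentile (6.29) and of Siglech below 5 were kept and ordered by Tcf7. The 64 cells with the highest Tcf7 are called Tcf7-high here and the 64 with the lowest Tcf7-low, 128 cells in all. The 65 cells between them entered no test of Tcf7-high against Tcf7-low. All cells are described by the submitters as early thymic progenitors (ETPs), from the thymus at embryonic day 15.5 of a mouse strain labelled 5x polychromILC, in which reporters mark loci of innate lymphoid and T-cell regulators; every group shares this strain, age and tissue, and no treatment is named. The labels give 4 mouse ids, 1A, 1B, 2A and 2B, but do not say whether an id stands for 1 embryo or a pool, nor which surface markers defined the sorted cells. Single cells were sorted into plates and their polyadenylated RNA was amplified and sequenced by a Smart-seq2 protocol.

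Tcf7 encodes TCF-1, a transcription factor with an HMG-box DNA-binding domain that is switched on by Notch signals in progenitors that have entered the thymus. TCF-1 acts early in T-cell specification, upstream of Gata3 and Bcl11b, and is also needed for precursors of innate lymphoid cells. ETPs start with genes of multipotent progenitors, such as Flt3, Lmo2 and Spi1, and shed them as they pass to the next stage, which is marked by Il2ra, the alpha chain of the IL-2 receptor. Kit, the receptor of stem cell factor, is carried by both stages, and Siglech marks plasmacytoid dendritic cells.

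Tcf7, at chr11:52252371-52283014 on the minus strand of GRCm38, had a log2 value of 7.36 at the lowest, 8.51 at the median and 11.18 at the highest in the Tcf7-high cells, and of -0.30, 1.04 and 4.07 in the Tcf7-low cells. These values chose the groups and are not a result. The cells at the borders were close to each other: 4.07 and 4.08 at the lower border, 7.29 and 7.36 at the upper, 6.29 and 6.32 at the Kit threshold, and 4.98 and 5.01 at the Siglech threshold. Tcf7 transcripts were detected in 40 of the 64 Tcf7-low cells and in all 65 middle and 64 Tcf7-high cells, so the lower group joins cells with little and cells with no detected Tcf7. Kit, which the rule used only as a floor, averaged 8.65 ± 0.26 in the Tcf7-high and 8.41 ± 0.12 in the Tcf7-low cells (mean ± SD of 4 mice), and the mouse means of the groups overlapped. The Tcf7-high cells numbered 15 (1A), 14 (1B), 19 (2A) and 16 (2B), and the Tcf7-low cells 21, 18, 13 and 12 in the same order. Values by mouse are given in that order throughout.

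**Figure D1:**
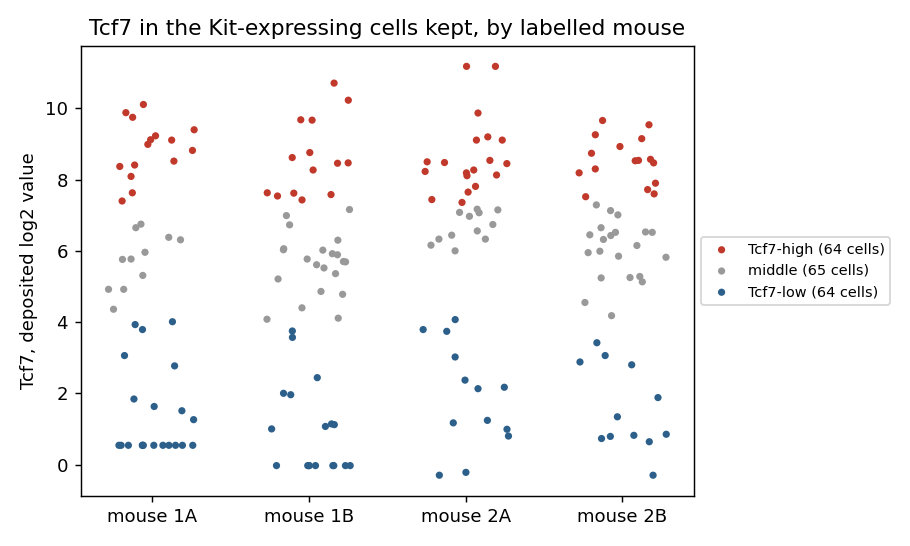
Each point is 1 kept cell; the x axis gives the labelled mouse and the y axis the deposited log2 value of Tcf7. The Tcf7-high cells lie between 7.36 and 11.18 and the Tcf7-low cells between -0.30 and 4.07, and every mouse holds cells of both groups.

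Not all of the 261 cells fit the ETP label by their markers: 26 had a Siglech value of 5 or more, and among the kept cells 19 Tcf7-high, 14 middle and 18 Tcf7-low cells carried at least 3 markers of NK cells, macrophages, B cells or mast cells above a log2 value of 5. The matrix gives no read counts, so the number of detected genes stood in for depth, with medians of 7954 in the Tcf7-high and 7821 in the Tcf7-low cells (5073 to 9481 over both). By mouse the medians were 7669, 7422, 8194 and 8250 in the Tcf7-high against 7776, 7798, 7860 and 8139 in the Tcf7-low cells, lower in 1A and 1B and higher in 2A and 2B. A gene counts as detected in a cell when its value differs from the repeated lowest value of the cell's correction set; the matrix holds 4 such sets of cells, recognised by exact shared values. 42 of the 44 kept cells of mouse 2A and all 49 of mouse 2B fell in the same pair of sets, which they share, so whether 2A and 2B are separate animals was not tested; if they are one, the p-values are too small.

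Past the threshold, 6 genes rose and 5 fell in the Tcf7-high cells, with adjusted differences of 2.39 to 4.58 on the log2 scale upward and of -2.81 to -4.08 downward. Cpa3, Scin, Il17rb, Stat5a, Trf and Cpt1a rose, and Gfra1, Flt3, Ighm, Csf1r and Car2 fell. All 11 moved the same way in 4 of 4 mice, as did 10.3% (higher) and 6.69% (lower) of all genes tested, and the range of mouse means in the Tcf7-high cells did not overlap that in the Tcf7-low cells. Of the 12412 genes tested, the called ones make up 0.0483% (higher) and 0.0403% (lower), and 3.18% and 2.59% of all genes had mouse means that did not overlap in the respective direction. Inside each mouse a gene's log2 value was modelled on the group with the plate and the number of detected genes as covariates, and the 4 adjusted differences, 1 per mouse, were tested against 0 with limma at a Benjamini-Hochberg adjusted p of 0.05; Tcf7, Kit and Siglech were left out. The calls rest on all 4 mice: without any 1 of them 0 genes were called with limma (371 to 534 lower and 586 to 652 higher at an unadjusted p under 0.05). The median absolute difference of the 11 genes was then 2.94 to 3.22 against 3.15. Their signs could not change, because each of the 11 had the same sign in every mouse. Regrouped by plate, the same cells gave the 11 genes the same sign on each of the 4 plates. Cpa3 had 4.21, 4.02, 4.87 and 3.60 and Flt3 -2.94, -3.97, -4.32 and -1.66 on plates AF1, AF2, JW7 and JW8. This is not separate support: all kept cells of mouse 1B were on AF1, and JW8 held only mouse 2B.

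The strongest rise was that of Cpa3, which encodes carboxypeptidase A3, a protease of mast cell granules that is also transcribed in early blood and thymic progenitors. Its mean log2 value was 7.71, 7.61, 8.12 and 8.03 in the Tcf7-high cells and 4.24, 2.41, 3.39 and 4.04 in the Tcf7-low cells. The lowest Tcf7-high mean lay far above the highest Tcf7-low mean. The adjusted difference was 4.58 ± 0.67 (SD of 4 mice; limma adjusted p = 0.024), and Cpa3 was detected in 61 of 64 against 43 of 64 cells. Other genes of the mast and basophil list did not go with it. Fcer1a, a chain of the IgE receptor, was detected in 0 Tcf7-high and 7 Tcf7-low cells, and the granule protease genes Mcpt8 and Prss34 had adjusted differences of -0.47 and -0.54 (adjusted p = 0.64 and 0.671). Of the 6 genes of the mast and basophil list that were tested, Cpa3 was the 1 called. The other 5 had negative differences, as did 5683 of all 12412 genes tested. The Fc receptor gamma chain gene Fcer1g, which the list does not hold, was higher without passing the threshold (2.45 ± 0.77, limma adjusted p = 0.0754). It was detected in 61 Tcf7-high and 51 Tcf7-low cells. Cells with at least 3 of the list's markers above a log2 value of 5 numbered 1 among the Tcf7-high and 4 among the Tcf7-low, and the list's summed log2 level, Cpa3 included, ranged over mice from 10.4 to 11.9 and from 6.19 to 14.5.

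Il17rb, a receptor chain for the cytokine IL-25, and Scin, which encodes the actin-severing protein scinderin, rose as well. Il17rb averaged 6.16, 5.26, 5.90 and 6.61 in the Tcf7-high cells against 3.14, 2.95, 2.15 and 3.07 in the Tcf7-low cells, with no overlap between the groups (3.15 ± 0.59, limma adjusted p = 0.0368). Scin averaged 6.70, 5.32, 7.58 and 6.30 against 3.07, 2.85, 4.29 and 3.68, again with every Tcf7-high mean above every Tcf7-low mean (3.21 ± 0.49, limma adjusted p = 0.0359).

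Stat5a, a transcription factor that carries signals from the receptors of IL-7, IL-2 and other cytokines, had means of 8.43, 7.08, 7.31 and 6.38 in the Tcf7-high cells and 5.68, 5.35, 4.84 and 3.76 in the Tcf7-low cells (2.68 ± 0.46, limma adjusted p = 0.0424). It was detected in 62 of 64 Tcf7-high and 51 of 64 Tcf7-low cells. Trf, which encodes the iron carrier transferrin, had means of 6.03, 6.44, 6.41 and 5.72 against 3.78, 4.47, 3.61 and 3.41 (2.63 ± 0.52, limma adjusted p = 0.0491), the adjusted p closest to the threshold among the called genes. Cpt1a, the enzyme that passes long-chain fatty acids toward the mitochondrial matrix, had the most even difference across mice, 2.35, 2.41, 2.30 and 2.48 (mean 2.39 ± 0.08, limma adjusted p = 0.0383). It was detected in 37 Tcf7-high, 33 middle and 17 Tcf7-low cells.

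Among the genes that fell, Flt3 and Csf1r encode receptor tyrosine kinases of the same class as Kit, the first typical of multipotent and lymphoid-primed progenitors and the second of monocytes and macrophages. Flt3 averaged 1.73, 1.74, 1.01 and 1.86 in the Tcf7-high cells and 3.84, 6.26, 5.82 and 5.30 in the Tcf7-low cells. The groups did not overlap; the difference was smallest in mouse 1A, where the adjusted value was -2.81, and largest in mouse 2A at -4.79 (mean -3.75 ± 0.81, limma adjusted p = 0.0359). Csf1r averaged 2.14, 1.83, 1.38 and 1.99 against 4.54, 4.70, 4.91 and 4.85 (-3.07 ± 0.32, limma adjusted p = 0.0359). Its level in the Tcf7-low cells was nearly the same in every mouse. Csf1r is a macrophage marker, and it was the 1 called of 9 macrophage genes tested, 5 of which had negative and 4 positive differences. Cd68, a lysosomal protein gene of macrophages, had -0.61 ± 0.70 (limma adjusted p = 0.643) and was detected in 16 Tcf7-high and 29 Tcf7-low cells. It was lower in 4 of 4 mice, as were 6.69% of all genes tested. Adgre1 had an adjusted difference of -0.10 (adjusted p = 0.955) and C1qa of 0.01 (adjusted p = 0.995). Cells with at least 3 of 10 macrophage markers above a log2 value of 5 numbered 1 among the Tcf7-high and 4 among the Tcf7-low. The summed log2 level of the list ranged from 8.32 to 10.9 over mice in the Tcf7-high cells and from 10.7 to 13.9 in the Tcf7-low cells. Both measures include Csf1r itself, whose mean over mice was 1.84 in the Tcf7-high and 4.75 in the Tcf7-low cells, so they are not separate from its difference.

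Gfra1, a co-receptor for the growth factor GDNF, averaged 2.38, 1.45, 1.39 and 0.33 in the Tcf7-high cells and 4.97, 5.43, 6.97 and 3.95 in the Tcf7-low cells (-4.08 ± 1.06, limma adjusted p = 0.0383). It was detected in 22 of 64 against 51 of 64 cells, the widest gap in detection among the called genes. Car2, which encodes carbonic anhydrase 2, averaged 3.45, 2.73, 1.58 and 2.19 against 5.31, 6.16, 4.26 and 5.41 (-2.81 ± 0.34, limma adjusted p = 0.0359). Ighm, the constant region of the immunoglobulin mu heavy chain, averaged 2.45, 1.80, 1.37 and 1.52 against 4.92, 5.87, 6.17 and 4.04 (-3.69 ± 1.00, limma adjusted p = 0.0431). Ighm is transcribed in B-lineage and plasmacytoid dendritic cells. Here its transcripts were detected in 54 of 64 Tcf7-low and 35 of 64 Tcf7-high cells. Of the 7 B cell genes tested, Ighm was called and all 7 had negative differences, as did 5683 of all 12412 genes tested. Pax5, the B-lineage commitment factor, was detected in 2 Tcf7-low and 0 Tcf7-high cells. Cells with at least 3 of 10 B cell markers above a log2 value of 5 numbered 5 among the Tcf7-low and 1 among the Tcf7-high. In both groups these were far fewer than the cells with detected Ighm. The summed level of the list over mice was 12 to 16.9 in the Tcf7-low and 8 to 9.03 in the Tcf7-high cells. Both measures include Ighm itself, whose mean over mice was 5.25 in the Tcf7-low and 1.79 in the Tcf7-high cells, so they are not separate from its difference. Siglech was detected in 36 Tcf7-low and 29 Tcf7-high cells. The rule held it below 5 in both groups, so its level cannot show whether they differ in plasmacytoid dendritic cells. The part of B-lineage and plasmacytoid dendritic cells in the Ighm difference was not tested. A choice made after seeing the data left out all cells with at least 3 markers of NK cells, macrophages, B cells or mast cells. The Ighm difference was then -3.41 (limma adjusted p = 0.219). Because Ighm is itself among the B cell markers, that choice partly rests on its own value.

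Fam129b came closest to the threshold among the other genes with lower values, with means of 1.52, 2.10, 2.00 and 2.53 in the Tcf7-high and 4.55, 4.69, 4.77 and 5.64 in the Tcf7-low cells (-2.92 ± 0.85, limma adjusted p = 0.0667).

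**Figure D2:**
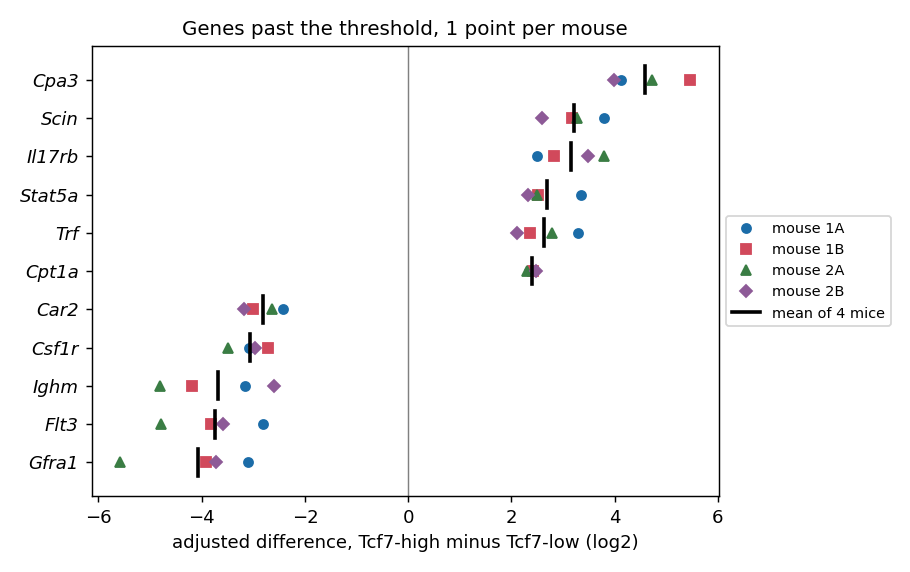
The x axis gives the adjusted log2 difference between Tcf7-high and Tcf7-low cells, 1 point per mouse, and the black bar the mean of 4 mice, for the 11 genes past the threshold. The 6 genes that rose and the 5 that fell did so in all 4 mice, and the Cpt1a points lie closest together (2.30 to 2.48).

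The cells between the groups, which entered no fit, lay at an intermediate level for most of these genes. The middle mean was between the other means in 4 of 4 mice for Cpa3, Il17rb, Cpt1a, Gfra1, Ighm and Car2, and in 3 of 4 for Flt3 and Csf1r. For Cpa3 it was 4.65, 3.83, 6.52 and 6.81, near the Tcf7-low mean in mice 1A and 1B and nearer the Tcf7-high mean in the other mice. Stat5a differed from this pattern. Its middle means, 6.67, 7.19, 6.56 and 7.50, exceeded the Tcf7-high mean in mice 1B and 2B, and the middle mean lay between the others in 2 of 4 mice for Stat5a and Scin and in 1 of 4 for Trf.

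**Figure D3:**
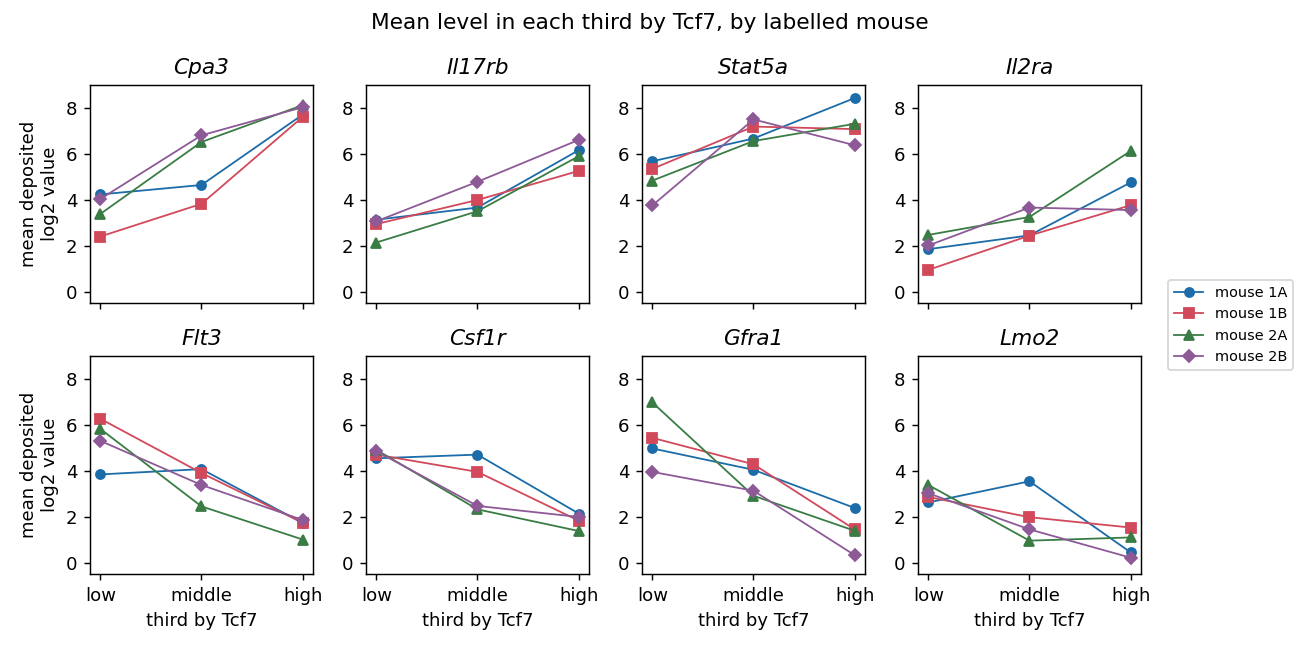
Each panel plots the mean deposited log2 value of 1 gene in the Tcf7-low, middle and Tcf7-high cells, 1 line per mouse. Il17rb climbs and Gfra1 declines from low to high in all 4 mice, whereas the Stat5a lines of mice 1B and 2B peak in the middle cells.

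Windows of 250 bases before to 50 after a start site were matched by symbol in RefSeq's table for GRCm38.p6 for 7 of the 11 genes (8 windows; Csf1r, Car2, Ighm and Trf are named only). They were searched on both strands for CTTTGA and CTTTGT, the core letters to which TCF and LEF factors are known to bind, which do not overlap each other. Of the 8 windows 3 held a match, 37.5%, against 31.2% of all 32851 windows, so such matches were about as common among these genes as among promoters at large. The 3 windows are shown because they belong to the strongest gene that rose, to Flt3 and to Stat5a, with the match in capitals, 5′ to 3′ on the gene's strand. The windows lie at chr3:20242132-20242431 (Cpa3, minus strand), chr5:147400440-147400739 (Flt3, minus strand) and chr11:100860234-100860533 (Stat5a, plus strand, the second of its 2 listed starts).
Cpa3: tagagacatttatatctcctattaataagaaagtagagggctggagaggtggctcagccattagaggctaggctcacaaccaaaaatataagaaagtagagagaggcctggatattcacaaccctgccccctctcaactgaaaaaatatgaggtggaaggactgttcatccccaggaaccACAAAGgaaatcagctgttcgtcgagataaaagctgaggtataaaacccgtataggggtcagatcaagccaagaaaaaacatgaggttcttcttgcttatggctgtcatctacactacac
Flt3: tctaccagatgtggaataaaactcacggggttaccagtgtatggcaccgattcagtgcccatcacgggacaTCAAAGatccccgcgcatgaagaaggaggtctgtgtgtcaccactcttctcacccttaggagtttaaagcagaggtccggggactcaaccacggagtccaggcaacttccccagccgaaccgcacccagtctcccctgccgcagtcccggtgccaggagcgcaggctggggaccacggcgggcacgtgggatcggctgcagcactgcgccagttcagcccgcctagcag
Stat5a: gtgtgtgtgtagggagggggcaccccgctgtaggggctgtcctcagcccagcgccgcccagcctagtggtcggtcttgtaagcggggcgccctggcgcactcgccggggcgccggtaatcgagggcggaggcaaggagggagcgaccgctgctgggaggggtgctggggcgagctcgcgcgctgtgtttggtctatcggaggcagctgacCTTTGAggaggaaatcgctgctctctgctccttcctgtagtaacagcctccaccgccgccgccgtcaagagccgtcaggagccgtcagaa
Counted from the start site, the match began at -70 in Cpa3, -179 in Flt3 and -40 in Stat5a. A match describes the letters only.

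Genes of T-cell specification held both directions without passing the threshold: 13 had a positive and 7 a negative difference. Of all 12412 genes tested 6729 and 5683 did. The 7 were Rag2 (-1.15), Cd27 (-0.63), Ets1 (-0.52), Rag1 (-0.20), Il7r (-0.18), Cd3d (-0.07) and Tcf12 (-0.07), with limma adjusted p = 0.644 to 0.982. Of the 24 genes of the list 20 were tested (Tcf7 itself was left out), 0 were called, and 5 had an unadjusted p under 0.05 with a positive difference against 0 with a negative one, where 5.49% and 4.25% of all genes tested did. The median difference was 0.42, against 0.04 over all genes, and -0.08 in mouse 2A. Il2ra had the smallest p, with means of 4.76, 3.77, 6.13 and 3.56 in the Tcf7-high cells against 1.86, 0.96, 2.48 and 2.02 (2.70 ± 0.81, limma adjusted p = 0.07). Every Tcf7-high mean exceeded every Tcf7-low mean, as it did for 3.18% of all genes tested, and Il2ra was detected in 47, 40 and 29 Tcf7-high, middle and Tcf7-low cells. The constant segment Trbc1 of the T-cell receptor beta chain followed (2.09 ± 0.53, limma adjusted p = 0.0754); Trbc2, a near-identical copy with which it can share reads, had 0.88 ± 1.07 (adjusted p = 0.58).

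Gata3 and Bcl11b, the T-lineage regulators known to act downstream of TCF-1, had positive differences in 4 of 4 mice that varied widely in size. Gata3 averaged 6.55, 6.66, 5.86 and 5.41 in the Tcf7-high and 5.04, 4.04, 5.04 and 5.11 in the Tcf7-low cells (1.40 ± 1.26, limma adjusted p = 0.408). The adjusted differences ran from 0.22 in mouse 2B to 3.13 in mouse 1B. Bcl11b was detected in 17 Tcf7-high, 8 middle and 2 Tcf7-low cells, with mean values of 1.14, 0.29, 1.58 and 2.45 against 0.18, 0.27, 0.17 and 0.07 (1.20 ± 1.00, limma adjusted p = 0.408). In mouse 1B its groups were alike. Lck, a kinase of T-cell receptor signalling, was detected in nearly all cells of both groups, with a difference of 0.53 ± 0.57 (adjusted p = 0.66), and the surface marker Thy1 had 0.66 ± 0.64 (adjusted p = 0.584). Cd3e was detected in 9, 5 and 1 Tcf7-high, middle and Tcf7-low cells, too few for the test.

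Lef1, the closest relative of Tcf7, did not follow it: it was detected in 23 Tcf7-high and 24 Tcf7-low cells, and its difference was 0.02 ± 0.91 (limma adjusted p = 0.993), with 2 mice on either side of 0. Of the 11 HMG-box genes tested none (0) was called with limma, 1 had an unadjusted p under 0.05 in each direction, and the lowest p was that of Hmga2, a chromatin protein of fetal progenitors (-2.23 ± 0.72, limma adjusted p = 0.0887). Tox, an HMG-box factor of T-cell and innate lymphoid development, had 1.11 ± 1.43 (adjusted p = 0.567). For the TLE co-repressors and the beta-catenin pathway, partners of TCF factors, 0 of 16 genes were called, 0 and 1 had an unadjusted p under 0.05, and the median difference was 0.06.

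Notch receptors and targets showed no common direction. Of 18 genes tested 0 were called and 1 in each direction had an unadjusted p under 0.05, with a median of -0.02. Notch1, detected in every cell of both groups, had a difference of -0.63 ± 0.46 (limma adjusted p = 0.555). Its targets Dtx1 and Hes1 had 2.04 ± 1.48 (adjusted p = 0.312) and 1.00 ± 1.17 (adjusted p = 0.544), positive in mice 1A, 1B and 2A and negative in mouse 2B.

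Genes of innate lymphoid precursors were divided. Zbtb16, which encodes PLZF, was detected in 32 Tcf7-high, 21 middle and 10 Tcf7-low cells, with means of 3.00, 2.58, 1.90 and 3.48 against 0.37, 0.26, 1.51 and 0.29 (2.01 ± 1.18, limma adjusted p = 0.23). The gap was wide in mice 1A, 1B and 2B and narrow in mouse 2A, where the adjusted difference was 0.38. Id2, an inhibitor of E proteins, had -0.01 ± 1.68 (adjusted p = 0.998), and the nuclear receptor gene Rora 0.07 ± 0.66 (adjusted p = 0.977), with 13 and 14 cells detected. Il7r, the IL-7 receptor chain of lymphoid cells, had -0.18 ± 0.82 (adjusted p = 0.93). Of the 15 genes of the list 0 were called, 7 had a positive and 8 a negative difference, and the median was -0.01. An unadjusted p under 0.05 was found for 2, Zbtb16 and the integrin gene Itga4 (2.04 ± 0.52, adjusted p = 0.0786), where 5.49% of all genes had a positive difference at that p. Both were higher in 4 of 4 mice, as were 10.3% of all genes tested. Cells with at least 3 of 13 NK and cytotoxic markers above a log2 value of 5 numbered 18 of 64 Tcf7-high, 11 of 65 middle and 5 of 64 Tcf7-low cells, a count over cells with no test. In that list the granule genes Gzma (2.43 ± 1.32, adjusted p = 0.188), Gzmb (1.39 ± 0.56, adjusted p = 0.222) and Nkg7 (1.11 ± 0.48, adjusted p = 0.312) had the 3 lowest p-values. The NK receptor genes showed no clear difference: Klrd1 had -0.41, Klrb1c -0.19, Ncr1 -0.12, Klrc1 -0.08 and Klrk1 0.06 (limma adjusted p = 0.804 to 0.982). Eomes was detected in 0 Tcf7-low and 1 Tcf7-high cell. The list's summed level over mice was 17 to 24.8 in the Tcf7-high and 11.1 to 19.6 in the Tcf7-low cells, and its part in the differences described above was not tested.

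Of the progenitor genes, 12 had a negative and 6 a positive difference. Of 18 tested (19 listed, Kit left out) 1 was called, Flt3, 8 had an unadjusted p under 0.05 with a negative difference against 4.25% of all genes, and 0 had one with a positive difference; the median was -0.67. The 6 with a positive difference were the factors Myb (0.79, adjusted p = 0.568), Nfe2 (0.27), Erg (0.25), Lyl1 (0.19) and Tal1 (0.12) and the surface receptor Adgrg1 (0.59, adjusted p = 0.645), with Erg and Adgrg1 higher in 4 of 4 mice. Lmo2, a stem cell factor partner, averaged 0.45, 1.53, 1.10 and 0.22 in the Tcf7-high and 2.62, 2.86, 3.38 and 3.02 in the Tcf7-low cells (-2.32 ± 0.70, limma adjusted p = 0.0754), and the homeobox gene Hoxa9 had -1.87 ± 0.24 (adjusted p = 0.0754). Mef2c had -2.16 ± 1.00 (adjusted p = 0.157) and Cd34 -1.42 ± 0.47 (adjusted p = 0.189). Spi1, which encodes PU.1, had -0.87 ± 0.64, Bcl11a -0.86 ± 0.68 and Cd44 -1.01 ± 0.72 (adjusted p = 0.45, 0.465 and 0.408). Each of these 7 genes was lower in the Tcf7-high cells of 4 of 4 mice, as were 6.69% of all genes tested. Cd34 and Spi1 were still detected in 62 and 61 of 64 Tcf7-high cells.

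Granulocyte and monocyte genes held both directions. Of 12 tested Csf1r was called, and 4 had an unadjusted p under 0.05 with a negative and 1 with a positive difference. Of all genes tested 4.25% and 5.49% did. Csf2rb, the shared beta chain of the IL-3 and GM-CSF receptors, had -1.72 ± 1.02 (limma adjusted p = 0.269) and was detected in 22 against 43 cells; its near copy Csf2rb2 can share its reads. Cd33 had -2.46 ± 1.13 (adjusted p = 0.15). Mpo, the myeloperoxidase gene, went the other way with 1.16 ± 1.21 (adjusted p = 0.483) and was detected in 64 and 63 cells. Among 18 cytokine receptor genes Flt3 was called, 8 had an unadjusted p under 0.05 with a negative and 2 with a positive difference, Il2ra and Il15ra, where 4.25% and 5.49% of all genes did, and the median was -0.70. The list does not hold Il17rb, which rose.

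**Figure D4:**
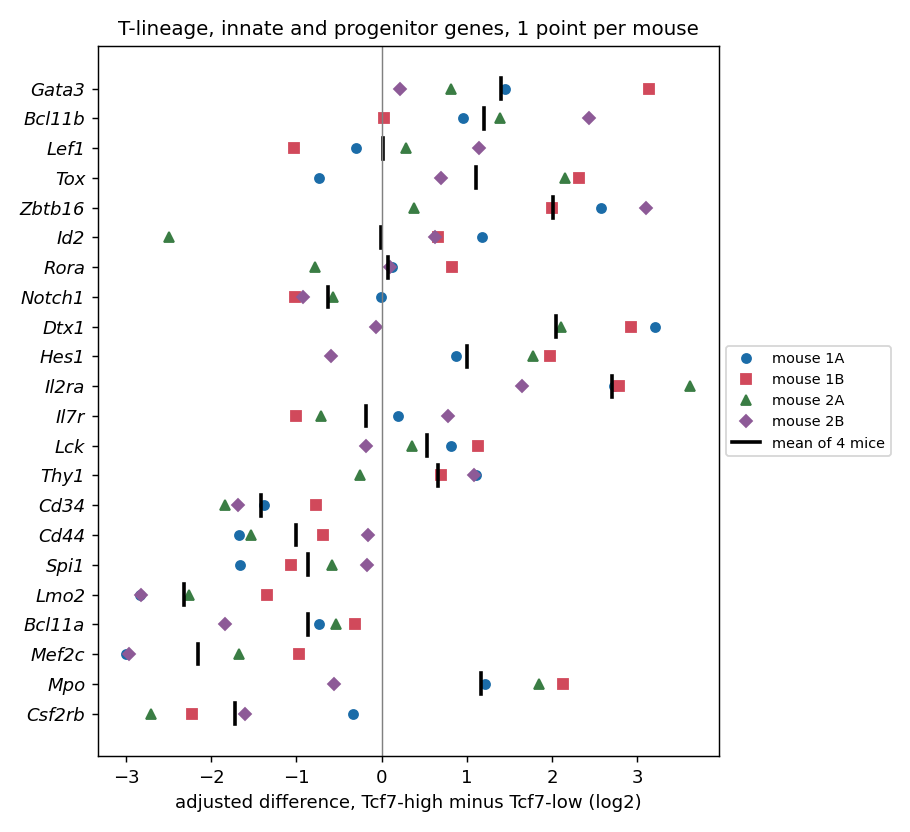
The x axis gives the adjusted log2 difference between Tcf7-high and Tcf7-low cells, 1 point per mouse, and the black bar the mean, for genes named whatever their test. Il2ra and Zbtb16 lie right of 0 and Lmo2, Mef2c and Cd34 left of it in all 4 mice, while Lef1, Id2 and Rora fall on both sides; none of these genes passed the threshold.

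The gamma-delta T list had a median of 0.44, with 0 of 8 genes called and 3 at an unadjusted p under 0.05, all positive, where 5.49% of all genes had a positive difference at that p. The T-cell receptor gamma constant segments Tcrg-C2 and Tcrg-C1 had 2.17 ± 0.29 and 2.30 ± 0.50 (limma adjusted p = 0.0666 and 0.0667) and the delta constant segment Trdc 1.46 ± 0.43 (adjusted p = 0.174); the gamma segments are similar and can share reads. Markers of thymic stroma were also on the higher side. Of 11 listed 5 were tested and 0 called with limma (0 at an unadjusted p under 0.05), with a median of 0.66, all 5 positive and 3 of them in 4 of 4 mice: Pecam1 (0.75, an endothelial gene also detected in 63 and 61 cells here) and the epithelial genes Krt8 (0.66) and Epcam (0.51). Of all 12412 genes tested 6729 had a positive difference, and 10.3% were higher in every mouse. Foxn1, the defining factor of thymic epithelium, was detected in 11 Tcf7-high, 5 middle and 2 Tcf7-low cells and Krt5 in 9, 3 and 1, too few for the test. The list's summed log2 level ranged over mice from 8.69 to 13.1 in the Tcf7-high and from 6.12 to 8.81 in the Tcf7-low cells, and its part in the differences described above was not tested. Cell-cycle genes differed between mice. The 20 G2M genes had a median of -0.95, with all 20 negative, where 5683 of all 12412 genes tested were. Of the 20, 0 were called and 5 had an unadjusted p under 0.05, where 4.25% of all genes had a negative difference at that p. By mouse the G2M medians were -1.85 and -2.14 in mice 1A and 2A against 0.10 and 0.15 in mice 1B and 2B. The 21 S phase genes had a median of 0.13. With the mean levels of both cycle lists added to the fit, 0 genes were called with limma (628 higher and 480 lower at an unadjusted p under 0.05), while the 11 genes kept their signs with a median absolute difference of 3.41 against 3.15. The dendritic list had a median of -0.03, with 0 of 13 genes called and 1 at an unadjusted p under 0.05, Ccr9, a receptor that guides progenitors to the thymus (-2.07 ± 0.85, adjusted p = 0.15).

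The cells removed by the Kit threshold gave no call. This comparison was added after the data were seen: 42 cells had Kit at or below the threshold and Siglech below 5, with 7 to 14 cells per mouse, and the 21 with more Tcf7 were set against the 21 with less, with the number of detected genes as covariate. At least 3 markers of NK cells, macrophages, B cells or mast cells were present in 31 of the 42. Of the 11 genes called in the kept cells 7 had the same sign here, and 0 of 12284 genes were called with limma (0% in either direction, 713 at an unadjusted p under 0.05). Cpa3 had 2.11 ± 2.83 and Flt3 0.20 ± 1.41 (limma adjusted p = 0.835 and 0.974), with Cpa3 at 6.10 in mouse 1A and -0.22 in mouse 1B. Cpt1a had -1.82 ± 1.93 (adjusted p = 0.835) and was lower in 4 of 4 mice, as were 6.87% of all genes tested in these cells.

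**Figure D5:**
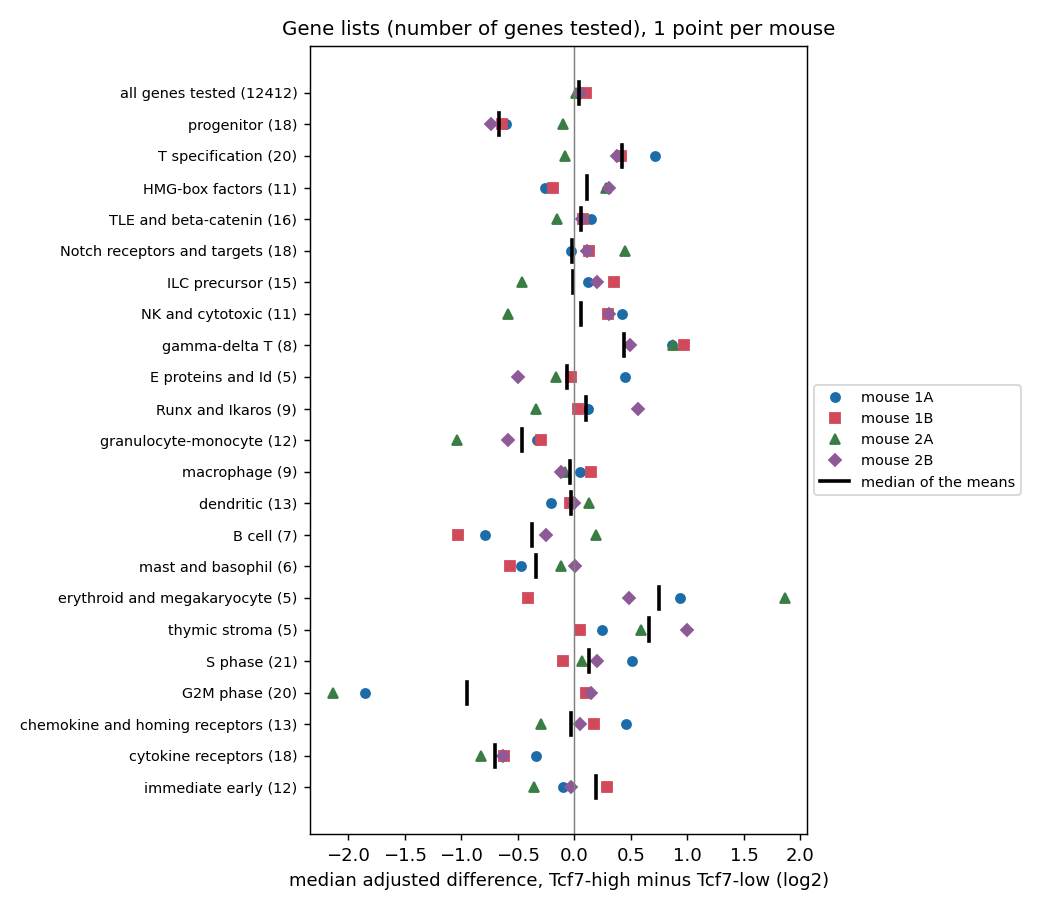
Each row is a gene list with the number of genes tested; the x axis gives the median adjusted log2 difference between Tcf7-high and Tcf7-low cells, 1 point per mouse, and the black bar the median of the 4-mouse means. The cytokine receptor and granulocyte-monocyte points lie left of 0 and the gamma-delta T and thymic stroma points right of it in all 4 mice, and the G2M points split into mice 1A and 2A against 1B and 2B.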

How the data were processed

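Expression was measured in single cells of 1 tissue; each GEO sample is 1 cell and the labelled mouse id is the replicate. The authors deposited 1 matrix of 13737 features, with log2 values of normalized, corrected expression between -4.13 and 15.99. Per the submitters' processing notes Salmon and GRCm38 were used (no versions given); neither the labels nor the file header describe the normalization or filters, and the correction by set of cells is read from the values. A depth of reads per cell is therefore unknown. IDs were matched to GENCODE symbols (13578 of 13732).

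Cells sharing exact values formed 4 sets (at least 14.2% shared inside a set, 0% between). A gene was detected when its value differed from its set's repeated lowest value by more than 1e-06, and genes detected in at least 10% of kept cells were tested. Group differences were fitted inside each mouse with numpy 2.4.6 (plate and number of detected genes as covariates) and their 4 values tested against 0, two-sided, by limma 3.58.1 (R 4.3.3). An exact sign-flip test over 4 mice cannot go below p = 0.125. Cells were not replicates. limma shares variance between genes, so p does not measure a gene's own spread alone. The scripts were tested on simulated data.

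The comparison, the gene lists and the rule for named genes (called genes; Fam129b to fill the lower side to 6; fixed regulators) were chosen with earlier results of these data known. Other list members were named by smallest p or as defining markers, after their values were seen. Smart-seq2 does not mark strand, so reads of overlapping antisense genes cannot be told apart. Alternatives are given in the closing section.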

Additional observations from a re-analysis of the deposited data

Results flagged for a closer look

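Id2 in mouse 2A stood apart from the other mice: its adjusted difference was -2.50, against 1.18, 0.66 and 0.63 in mice 1A, 1B and 2B. Among 34 named genes, 1 had such a mouse, and chance alone flags about 1 in 20 groups.

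Cpt1a went in opposite directions in kept and Kit-low cells. In the 42 cells with Kit at or below its threshold and Siglech below 5, it was lower in the 21 cells with more Tcf7 in 4 of 4 mice (-1.82 ± 1.93, limma adjusted p = 0.835), whereas in the kept cells it was higher in 4 of 4 (2.39). The difference between them was not tested.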

How the results depend on the processing

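The 11 called genes kept their direction under all 24 alternatives, and the number of calls moved. The kept direction is not separate support, because the genes were chosen in these same cells. Where 1 mouse was left out, or only the test or the detection filter changed, the per-mouse differences were reused and no sign could change. It stayed at 5 or 6 higher and 5 lower with no Siglech threshold, with aligned levels at no reads and with genes detected in at least 25% of kept cells. Higher and lower calls numbered 3 and 2 without covariates, 2 and 5 with plate only, 2 and 2 with groups formed inside each mouse, 2 and 0 for a slope on Tcf7, 1 and 3 with correction sets as units, 1 and 1 with plates as units, and 5 and 3 without the first 8 wells of each set. They numbered 70 and 34 on ranks, 30 and 19 with a limma trend, and, in alternatives chosen after seeing the data, 16 and 10 with the correction set as covariate and 1 and 0 without cells with 3 markers of another type (19 Tcf7-high and 18 Tcf7-low cells), where Cpa3 was the 1 called. limma called 0 and 0 with cell-cycle scores, with the kept cells split at the median Tcf7, with the outer 25% at either end, with Kit above its median and without a detection filter, as did the unmoderated test; at an unadjusted p under 0.05 these gave 577 to 754 higher and 363 to 563 lower genes. Leaving out 1 mouse gave 0 to 0 in either direction.

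Genes far from the threshold changed sign, and the cause was not tested, as for the counts. Id2 was 0.19 with Kit above its median, 0.05 with the median split, 0.04 without covariates, 0.03 with plate only, 0.34 with plates as units, 0.0048 per log2 unit of Tcf7 and 0.82 without mouse 2A. Il7r was 0.07 with plates as units and 0.09 without mouse 1B. Lef1 was -0.17 with Kit above its median, -0.14 with the correction set as covariate and without the first wells, -0.06 with sets as units and without mouse 2A, -0.09 with the median split, -0.01 without the Siglech threshold, -0.26 with the outer 25% and -0.35 without mouse 2B. Rora was -0.18, -0.04, -0.03, -0.22, -0.00022, -0.09, -0.08, -0.19 and -0.02 with Kit above its median, the correction set as covariate, no Siglech threshold, the outer 25%, ranks, groups inside each mouse, without cells with markers of another type, without mouse 1B and without the first wells. Without 1 mouse, the ranges were -0.41 to 0.82 (Id2), -0.50 to 0.09 (Il7r), -0.35 to 0.37 (Lef1) and -0.19 to 0.35 (Rora). With 12 to 21 cells per mouse and group and no read depth, small differences were not detectable.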

Other observations

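Just short of the threshold, 24 further genes had limma adjusted p-values from 0.0666 to 0.0786, leaving aside Gm, Rik and pseudogene names and genes without a symbol. All had the same sign in 4 of 4 mice, as did 10.3% (higher) and 6.69% (lower) of all genes tested. Besides genes described above, these include Ikzf2, which encodes the Ikaros family factor Helios (2.18 ± 0.38 log2, limma adjusted p = 0.0667), and the integrin alpha chain Itga2b of megakaryocytes and progenitors (2.66 ± 0.75, 0.0667). Also on the higher side were the peptidase gene Dpp4 (2.72 ± 0.89, 0.0754), Fcer1g, already given with Cpa3 (2.45 ± 0.77, 0.0754), and Fgf3 (2.84 ± 1.02, 0.0754). Mn1 (-2.41 ± 0.60, 0.0667) was on the lower side. These were named after their values were seen. When values were replaced by ranks inside each mouse, the alternative with the most calls, limma called each of these 6 genes (adjusted p = 0.00528, 0.0159, 0.000367, 0.000367, 0.0151 and 0.0008). It also called Il2ra (0.00435), Trbc1 (0.000464), Cd34 (0.00104) and Lmo2 (0.0371), but not Gata3 (0.0921), Zbtb16 (0.0984) or Bcl11b (0.319). Among the 24 genes, Tcrg-C2 (0.108), Camk2d (0.136) and Hoxa9 (0.139) were not called on ranks.

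Reporter transcripts of the strain gave values next to those of their genes; the locus of each is from knowledge of the strain. hCD2, at Gata3, had 1.37 ± 0.70 (limma adjusted p = 0.285) and was higher in the Tcf7-high cells of 4 of 4 mice, next to 1.40 for Gata3. tagBFP, at Id2, had 0.28 ± 1.13 and mTeal, at Rora, 0.15 ± 0.41 (adjusted p = 0.906 and 0.926). TdTomato, at Bcl11b, was detected in 7 Tcf7-high, 2 middle and 0 Tcf7-low cells, too few for the test.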
